A study of Mus musculus with 12 samples.

Results

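The small leucine-rich proteoglycans are 10 genes of the deposited table, taken by symbol: Dcn, Lum, Kera, Fmod, Prelp, Omd, Aspn, Ogn, Bgn and Podn. They are 10 of 31075 genes in the table, and all 10 were among the 19118 genes that passed the filter on low counts. Kera, the lowest, reached the cutoff of 0.151 CPM in all 3 libraries of WT_Norm, WT_Opti and KO_Norm and in none of KO_Opti, and so passed in the knockout libraries alone as well as in the wild type libraries alone.

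Messenger RNA was sequenced from primary fibrochondrocytes of the mandibular condylar cartilage, from pups aged 10 to 14 days. Wild type (WT) cells were C57BL/6J, and NG2/CSPG4 knockout (KO) cells came from mice with a deletion allele of Cspg4 that holds a reporter, on a C57BL/6J backcross. Cells of each genotype were kept either in AMEM with heat-inactivated FBS (Norm) or, as serum starvation, in Opti-MEM (Opti), and both media held L-glutamine, penicillin and Plasmocin. The 4 groups of 3 libraries are called WT_Norm, WT_Opti, KO_Norm and KO_Opti. The labels give passage 4, whereas the methods describe cells used at an earlier passage. The methods call the 3 libraries of a group biological replicates, and neither they nor the labels say whether these came from separate animals or separate cultures.

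The labels contradict themselves on the medium of all 6 knockout libraries: what the title calls Norm is entered as Opti under treatment, and the reverse. The titles set the groups used here. The comparison within wild type cells and that of the genotypes over both media are the same under either reading. Every statement that separates KO_Norm from KO_Opti rests on the title, and the other reading exchanges these names.

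Small leucine-rich proteoglycans are secreted proteins whose core of leucine-rich repeats binds collagen fibrils and, in many members, growth factors. Class I members (decorin, biglycan, asporin) include carriers of chondroitin or dermatan sulfate, class II members (lumican, keratocan, fibromodulin, PRELP, osteomodulin) include carriers of keratan sulfate, and osteoglycin and podocan stand in further classes. In cartilage, tendon and cornea they set the diameter and spacing of collagen fibrils.

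Many of these genes lie side by side in the mouse genome. In GRCm38, Dcn (chr10:97479609-97518143), Lum (chr10:97565128-97572703) and Kera (chr10:97606879-97613692) lie on the plus strand within 202.8 kb that also holds Epyc and no other protein-coding gene. Aspn (chr13:49544443-49567565), Omd (chr13:49582462-49592822) and Ogn (chr13:49608046-49624501) follow Ecm2 on the plus strand within 119.7 kb. All 4 lie antisense within Cenpp, which was between 0.841 and 2.15 CPM (counts scaled to library size) in the 12 libraries, and the counting of strand is not given in the sources used here. Prelp (chr1:133910304-133921414, minus strand) and Fmod (chr1:134037254-134048277, plus strand) lie within 151.1 kb together with Optc. Gm15851, antisense to Prelp, had at most 5 counts in any library. Bgn (chrX:73483602-73495933, plus strand) and Podn (chr4:108014791-108032337, minus strand) stand alone.

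The RefSeq promoter table (GRCm38.p6, 250 bases before to 50 bases after a start site) held 8 of the 10 members, without Dcn and Lum. Shown here are the 3 neighbours on chromosome 13, and Bgn and Podn, the members that were not lower in knockout cells over both media. The 3 neighbours were all lowest in KO_Norm, as were Prelp, Podn and, by its group mean, Fmod. Capitals mark TATAAA and the GC box GGGCGG on either strand, and the sequences were chosen after the values were seen.
Aspn, chr13:49544193-49544492, plus strand: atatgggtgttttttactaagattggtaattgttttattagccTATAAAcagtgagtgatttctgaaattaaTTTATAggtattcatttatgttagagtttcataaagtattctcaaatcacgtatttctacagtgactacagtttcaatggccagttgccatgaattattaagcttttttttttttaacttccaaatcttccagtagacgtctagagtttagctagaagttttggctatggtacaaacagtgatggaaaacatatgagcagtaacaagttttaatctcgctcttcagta
Omd, chr13:49582212-49582511, plus strand: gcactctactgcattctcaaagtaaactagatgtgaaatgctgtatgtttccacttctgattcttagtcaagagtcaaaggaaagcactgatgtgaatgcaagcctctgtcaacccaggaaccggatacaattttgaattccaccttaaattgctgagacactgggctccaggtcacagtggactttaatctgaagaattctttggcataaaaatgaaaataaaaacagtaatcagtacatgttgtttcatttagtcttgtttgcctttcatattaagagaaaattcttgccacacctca
Ogn, chr13:49607765-49608064, plus strand: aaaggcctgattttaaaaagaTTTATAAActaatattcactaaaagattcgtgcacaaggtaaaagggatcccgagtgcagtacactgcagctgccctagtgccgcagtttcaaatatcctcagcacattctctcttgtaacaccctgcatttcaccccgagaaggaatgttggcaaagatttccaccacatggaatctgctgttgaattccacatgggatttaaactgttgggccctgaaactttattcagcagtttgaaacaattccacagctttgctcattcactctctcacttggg
Bgn, chrX:73483351-73483650, plus strand: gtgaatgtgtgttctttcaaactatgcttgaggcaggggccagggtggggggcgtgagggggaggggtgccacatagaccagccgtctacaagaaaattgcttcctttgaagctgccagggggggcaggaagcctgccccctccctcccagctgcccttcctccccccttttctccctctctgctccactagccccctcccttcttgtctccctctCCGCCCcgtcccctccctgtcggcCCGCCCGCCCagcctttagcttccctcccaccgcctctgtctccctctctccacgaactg
Podn, chr4:108031905-108032204, minus strand: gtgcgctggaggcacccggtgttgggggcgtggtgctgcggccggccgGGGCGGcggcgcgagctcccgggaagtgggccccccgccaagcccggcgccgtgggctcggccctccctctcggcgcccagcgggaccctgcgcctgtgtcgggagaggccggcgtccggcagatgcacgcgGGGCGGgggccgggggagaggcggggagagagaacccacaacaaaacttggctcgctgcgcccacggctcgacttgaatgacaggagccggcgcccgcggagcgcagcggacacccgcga
TATAAA was in the windows of Aspn, at -207 and -178 from the start site, and of Ogn, where the matches at -229 and -227 overlap. It is held by 13.6% of all 32851 promoters listed there. GGGCGG was in the windows of Bgn, with 3 matches of which those at -10 and -6 overlap, and in the Podn window shown, with 2, against 35.7% of all promoters. A second RefSeq start site of Podn had no GC box. The AP-1 letters TGANTCA were in none of the 8 members' windows and in 7.81% of all promoters, and the Omd window held none of the 5 motifs searched, which also included CAGAC (49.6%) and CANNTG (72.3%). These are matches of letters only.

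Depth was 51546504 to 71448484 counts per library. Cspg4, the targeted gene, was at 113.5 to 216.3 CPM in the 6 wild type libraries and at 10.5 to 16.6 CPM in the 6 knockout libraries, and so followed the genotype labels. The 10 fibroblast and chondrocyte markers were detected in every library. Their sum ran from 117400 to 129800 CPM in WT_Norm, 86070 to 98580 in WT_Opti, 58820 to 77620 in KO_Norm and 31640 to 45590 in KO_Opti. Most of this sum was Col1a1 and Col1a2 (71030 to 82160 and 45650 to 51700 CPM in WT_Norm), which had the group order of Dcn and Lum. Pdgfrb (276.4 to 333.4 CPM in WT_Norm, 630.8 to 731.9 in KO_Opti), Sox9 and Prg4 were higher in KO_Opti than in WT_Norm. Pdgfra, Col2a1, Acan and Tnmd were lower there, and Scx overlapped. Several measures besides genotype and medium differed between the groups. Summed Y-linked expression was 37.5 to 66.1 CPM in WT_Norm, 52.1 to 58.8 in WT_Opti, 112.7 to 129.3 in KO_Norm and 73.5 to 82.1 in KO_Opti. The summed osteoblast markers (all 5 detected in every library) ran from 1455 to 2008 CPM in WT_Norm, 360.8 to 481 in WT_Opti, 209.7 to 253 in KO_Norm and 159.6 to 226.2 in KO_Opti. Most of this sum in WT_Norm was Ibsp (664.5 to 1085 CPM) and Alpl (524.8 to 635.6). These, Runx2 and Sp7 were lower in KO_Opti than in WT_Norm, while Bglap was higher (3.24 to 4.42 against 1.94 to 2.93 CPM). The summed myeloid markers (also all 5) ran in the same group order from 438.2 to 552.8, 579.2 to 997.7, 497.9 to 542.3 and 177.1 to 209.5 CPM. The summed mural markers were at 36.6 to 56.4 CPM in wild type and 9.70 to 18.2 CPM in knockout libraries. Most of this sum was Notch3, at 26.9 to 54.9 CPM in wild type and 8.03 to 17.1 CPM in knockout libraries. The other mural markers, Rgs5, Myh11, Des and Kcnj8, overlapped between the genotypes. Mitochondrial genes took 1.31% to 1.59% of counts in wild type libraries, 1.43% to 2.99% in KO_Norm and 2.20% to 5.90% in KO_Opti, with KO_Opti replicate 1 highest. WT_Norm replicate 2 held the highest epithelial sum, 141.4 CPM, against at most 5.47 in the 9 libraries of the other groups, and leaving it out changed no call of a member other than that of Bgn over both media. The part of these measures in the results was not tested, and in bulk RNA fewer cells of a type and less RNA per cell cannot be told apart.

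Compared per transcript length (FPKM), the wild type cells in serum expressed Fmod most among the members, then Lum, Bgn, Aspn and Prelp. Mean FPKM in WT_Norm ran from 1637 for Fmod and 1262 for Lum through 724 for Bgn to 12.5 for Podn and 0.824 for Kera. The ranges of Lum (999 to 1561) and Fmod (1469 to 1776) overlapped, and so did those of Prelp (357.7 to 464.6) and Aspn (298 to 579.1). Kera, the gene of the corneal proteoglycan keratocan, was near the floor of detection.

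**Figure D1:**
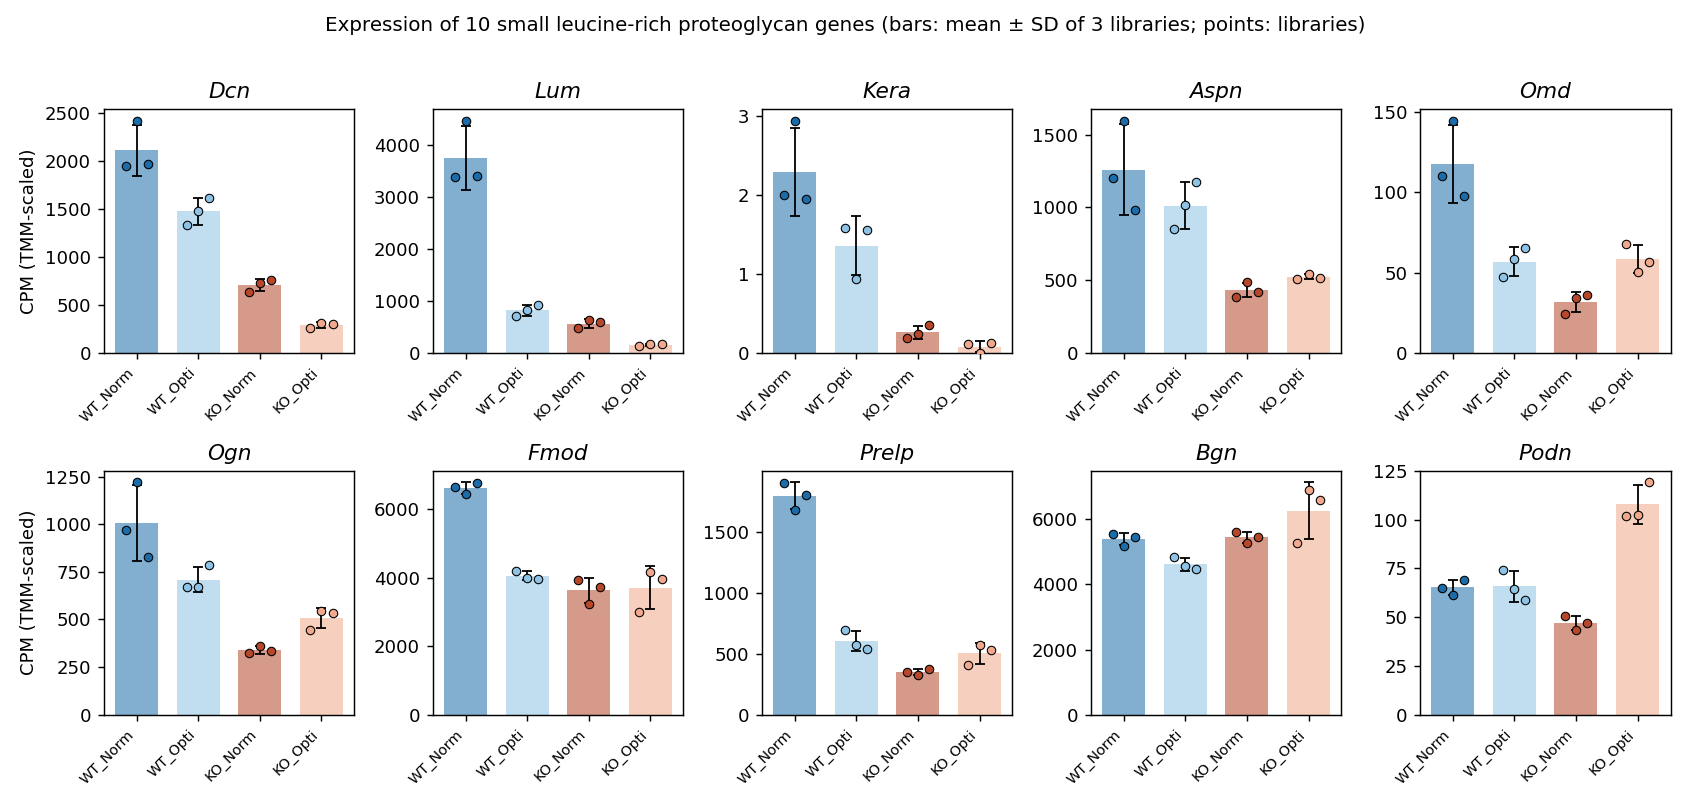
CPM (vertical axis, from 0, own scale for each gene) of the 10 members in the 4 groups. Bars are means with SD of 3 libraries and points are libraries. Dcn and Lum are highest in WT_Norm and lowest in KO_Opti, with no overlap between groups of different genotype in the same medium.

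The first question was how the family differed between the genotypes over both media. Of the 10 members, 8 were lower in knockout cells, 1 was higher and 1 did not pass an adjusted p of 0.05 (edgeR quasi-likelihood test, Benjamini-Hochberg), while 34% of all genes passed in either direction, 16% lower and 18% higher. The median log2 fold change of the members was -1.13, against 0.005 over all genes. Within serum-containing medium 9 of 10 were lower and none was higher, with a median of -1.57, while 36.1% of all genes passed, 17.2% lower and 18.9% higher. Within Opti-MEM 5 were lower and 2 higher, with a median of -0.37, while 28.2% of all genes passed, 14.9% lower and 13.3% higher. The counts within each medium rest on the titles. Under the treatment entry Podn was higher in Norm (0.725). In Opti, Prelp (-0.78), Omd (-0.844) and Podn (-0.489) were then lower and Bgn did not pass, so the contrast between the media was not kept.

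**Figure D2:**
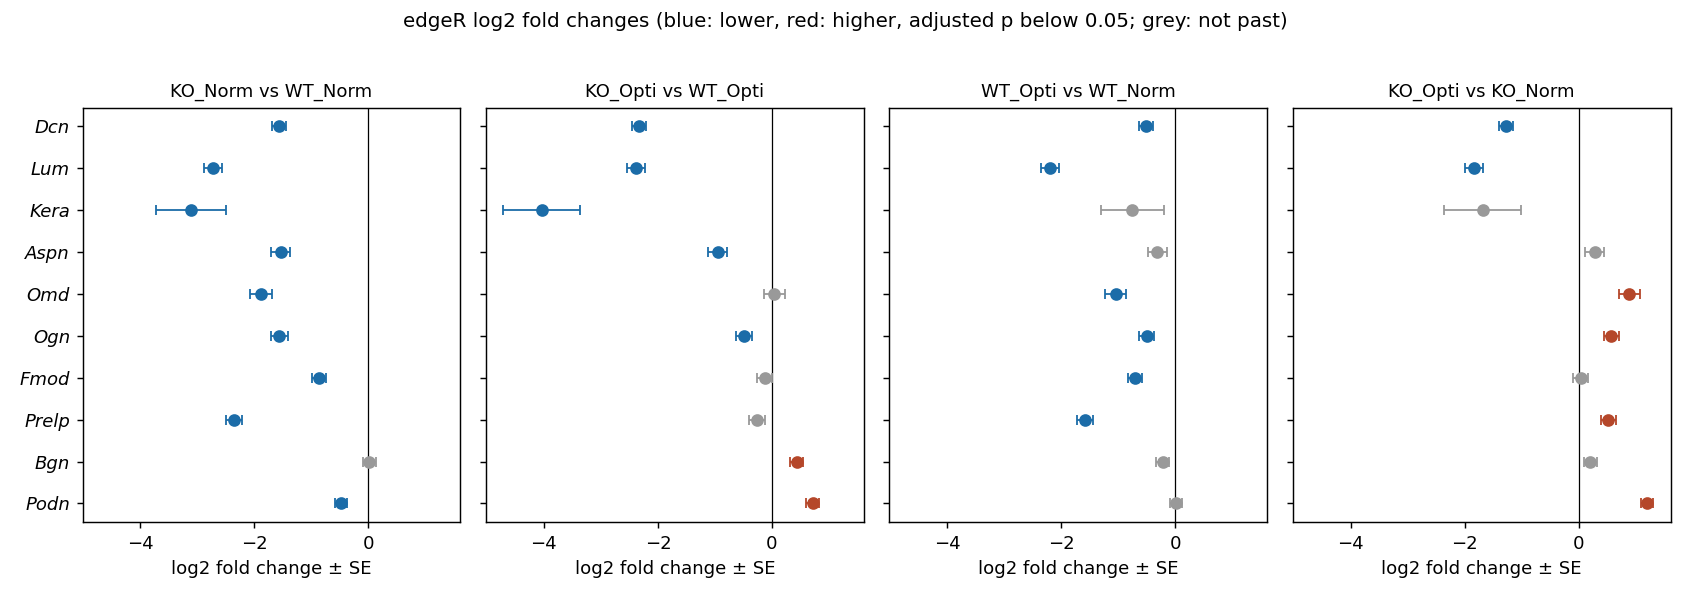
Log2 fold changes with SE (horizontal axis, edgeR) of the 10 members in 4 comparisons of 3 against 3 libraries; blue and red mark members below an adjusted p of 0.05. In KO_Norm against WT_Norm 9 of 10 members are lower, from -0.48 for Podn to -3.11 for Kera, and Bgn is at 0.01.

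Lum encodes lumican, which limits the lateral growth of collagen fibrils and is needed for a clear cornea. It was at 3389, 4470 and 3411 CPM in WT_Norm, 716, 825 and 916.7 in WT_Opti, 476.5, 626 and 597 in KO_Norm, and 137.5, 171.1 and 165.3 in KO_Opti. No groups overlapped, and the 3 lowest libraries were those of KO_Opti. It was lower in knockout cells by a log2 fold change of -2.73 ± 0.16 (SE) in Norm (adjusted p = 1.14e-07) and -2.38 ± 0.16 in Opti (adjusted p = 5.1e-07).

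Dcn encodes decorin, which binds fibrils of type I collagen and also binds TGF-beta. It was at 1946, 2419 and 1965 CPM in WT_Norm, 1336, 1476 and 1616 in WT_Opti, 639.2, 733.1 and 761 in KO_Norm, and 260.7, 313.7 and 305.1 in KO_Opti. All 4 groups stood apart, in that order. The knockout values were lower by 2.97-fold in Norm (log2 fold change -1.57 ± 0.13, adjusted p = 1.52e-06) and by 5.03-fold in Opti (-2.33 ± 0.13, adjusted p = 1.31e-07).

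Kera, the third gene of the stretch on chromosome 10, had 126, 186 and 90 counts in WT_Norm, 111, 60 and 99 in WT_Opti, 13, 16 and 23 in KO_Norm, and 8, 0 and 10 in KO_Opti. Its knockout and wild type counts did not overlap (log2 fold change over both media -3.57 ± 0.46, adjusted p = 6.65e-05). Epyc, the epiphycan gene at the end of this stretch, had 10 to 18 counts per library in WT_Norm, at most 6 in WT_Opti, 0 in all 3 KO_Norm libraries and at most 4 in KO_Opti.

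The 3 members on chromosome 13 were each lowest in KO_Norm, a trait shared with other members, although Omd differed from Aspn in Opti. Aspn encodes asporin, which binds collagen and TGF-beta and is linked to osteoarthritis in humans. It was at 1200, 1595 and 978.7 CPM in WT_Norm, 848.3, 1013 and 1171 in WT_Opti, 387.4, 486.8 and 421.2 in KO_Norm, and 508.7, 545.2 and 517.7 in KO_Opti. Every knockout library was below every wild type library, with a log2 fold change of -1.54 ± 0.17 in Norm (adjusted p = 2.18e-05) and -0.95 ± 0.17 in Opti (adjusted p = 0.00109).

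Ogn encodes osteoglycin, also called mimecan, of connective tissue and bone. It was at 968.3, 1220 and 829.7 CPM in WT_Norm, 672.5, 668.4 and 787.9 in WT_Opti, 322.8, 363.1 and 336.9 in KO_Norm, and 444.5, 544.4 and 533.2 in KO_Opti. The groups did not overlap. The log2 fold change of knockout against wild type was -1.56 ± 0.14 in Norm (adjusted p = 4.18e-06) and -0.48 ± 0.14 in Opti (adjusted p = 0.0196). The second missed the threshold without WT_Opti replicate 3 (-0.36, adjusted p = 0.117) or KO_Opti replicate 1 (-0.40, adjusted p = 0.0776). It also missed it on log2(FPKM + 0.1) and log2(FPKM + 1) (limma, -0.40 and adjusted p = 0.128 on each).

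Omd encodes osteomodulin, a keratan sulfate proteoglycan of bone. It was at 109.9, 144.3 and 97.4 CPM in WT_Norm, 47.2, 58.2 and 65.0 in WT_Opti, 24.5, 34.3 and 36.2 in KO_Norm, and 68, 50.4 and 56.7 in KO_Opti. WT_Opti and KO_Opti overlapped and KO_Norm was below all others. The log2 fold change was -1.89 ± 0.19 in Norm (adjusted p = 9.73e-06), whereas in Opti it was 0.04 ± 0.18 (95% interval -0.38 to 0.46, adjusted p = 0.906).

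Ecm2, the neighbour upstream of Aspn, averaged 16.5 ± 1.23 CPM (SD, n = 3) in WT_Norm, 8.997 ± 0.676 in WT_Opti, 5.4 ± 0.865 in KO_Norm and 6.93 ± 0.732 in KO_Opti. KO_Norm was again the lowest group, at a log2 fold change of -1.61 ± 0.15 against WT_Norm (adjusted p = 4.24e-06).

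Prelp and Fmod, on chromosome 1, were highest in WT_Norm, as were Lum, Dcn, Kera, Aspn, Ogn and Omd by their group means. Prelp encodes a protein thought to anchor basement membranes to the connective tissue below. It was at 1898, 1679 and 1804 CPM in WT_Norm, 694.2, 569.2 and 537.9 in WT_Opti, 352.2, 322.4 and 374.7 in KO_Norm, and 404.1, 570.3 and 532.6 in KO_Opti. WT_Opti and KO_Opti overlapped, and the knockout was lower by 5.13-fold in Norm (log2 fold change -2.36 ± 0.14, adjusted p = 1.51e-07) against -0.26 ± 0.14 in Opti (interval -0.57 to 0.06, adjusted p = 0.188).

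Fmod encodes fibromodulin, which takes part in collagen fibril assembly and crosslinking. It was at 6636, 6441 and 6774 CPM in WT_Norm, 4203, 4004 and 3969 in WT_Opti, 3943, 3226 and 3725 in KO_Norm, and 3009, 4175 and 3955 in KO_Opti. The latter 3 groups lay close together, below every WT_Norm library. The knockout was lower in Norm (-0.87 ± 0.13, adjusted p = 0.000232), and in Opti the difference was -0.13 ± 0.13 (interval -0.42 to 0.17, adjusted p = 0.508).

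Bgn and Podn did not share the lower level of knockout cells over both media. Bgn encodes biglycan, the closest relative of decorin. It was at 5533, 5194 and 5456 CPM in WT_Norm, 4847, 4560 and 4460 in WT_Opti, 5614, 5281 and 5442 in KO_Norm, and 5280, 6913 and 6603 in KO_Opti. The Norm groups overlapped (0.01 ± 0.11, interval -0.25 to 0.27, adjusted p = 0.94), while the 3 KO_Opti libraries exceeded those of WT_Opti (0.44 ± 0.11, adjusted p = 0.0112). The latter call was lost without KO_Opti replicate 3 (0.40, adjusted p = 0.0514). Over both media the log2 fold change was 0.23 ± 0.08 (adjusted p = 0.0441), and this call was lost without any one of 11 of the 12 libraries, KO_Opti replicate 1 being the exception (0.28, adjusted p = 0.00306). The X-linked transcript Xist, which is expressed from the inactive X chromosome, was at 33.3 to 58.7 CPM in KO_Norm and 154.4 to 449.5 CPM in the other groups, and its part in the values of the X-linked Bgn was not tested.

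Podn encodes podocan, described in smooth muscle as a restraint on growth. It was at 64.9, 61.5 and 69.3 CPM in WT_Norm, 74.4, 64.3 and 58.7 in WT_Opti, 50.3, 43.4 and 46.9 in KO_Norm, and 101.7, 102.5 and 119.1 in KO_Opti. KO_Norm was the lowest group and KO_Opti the highest. Against wild type the log2 fold change was -0.48 ± 0.11 in Norm (adjusted p = 0.0039) and 0.71 ± 0.11 in Opti (adjusted p = 0.000302), and over both media 0.12 ± 0.08 (adjusted p = 0.252). On the 2 FPKM scales (limma) the call in Norm was lost (adjusted p = 0.0519 and 0.0536). Over both media Podn was then called higher (adjusted p = 0.0301 and 0.0249).

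The next question was the response to serum starvation. In wild type cells 6 of 10 members were lower in Opti and none was higher, while 39.8% of all genes passed, 19.6% lower and 20.3% higher. The median of the members was -0.61, against -0.013 over all genes. On the FPKM scale, where the median of all genes stood 0.182 above 0, only 3 of the 6 were called. Lum fell most, 4.59-fold (log2 fold change -2.20 ± 0.16, adjusted p = 3.62e-07), followed by Prelp, 2.99-fold (-1.58 ± 0.14, adjusted p = 2.17e-06), and Omd (-1.05 ± 0.19, adjusted p = 0.000611). Fmod (-0.71), Dcn (-0.52) and Ogn (-0.50) passed on counts and missed the threshold on the FPKM scale. Without WT_Opti replicate 2 the call of Ogn was also lost (-0.46, adjusted p = 0.0544). Bgn (-0.22), Aspn (-0.32), Podn (0.01) and Kera (-0.75) did not pass, though Aspn did without WT_Norm replicate 3 (-0.49, adjusted p = 0.0307) and Bgn without KO_Opti replicate 1 (-0.22, adjusted p = 0.0398). Bgn also passed with DESeq2 (-0.27, adjusted p = 0.0176) and with a mean of at least 5 CPM (-0.29, adjusted p = 0.0313).

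In knockout cells 4 members were higher in Opti and 2 were lower, on the titles' reading of the media, while 19.4% of all genes passed, 8.39% higher and 11% lower. Lum (-1.84 ± 0.16, adjusted p = 2.46e-05) and Dcn (-1.28 ± 0.13, adjusted p = 6.83e-05) were the 2 that were lower. Podn was higher (1.20 ± 0.11, adjusted p = 3.58e-05), as were Omd (0.88 ± 0.19, adjusted p = 0.00606), Ogn (0.57 ± 0.14, adjusted p = 0.013) and Prelp (0.52 ± 0.14, adjusted p = 0.0193). The call of Ogn was lost without KO_Norm replicate 3 (0.56, adjusted p = 0.0527) or KO_Opti replicate 3 (0.54, adjusted p = 0.0534), and that of Prelp without KO_Norm replicate 2 (0.47, adjusted p = 0.0813), KO_Opti replicate 2 (0.42, adjusted p = 0.0655) or KO_Opti replicate 3 (0.48, adjusted p = 0.0758). Bgn, at 0.20 with all libraries, passed without KO_Opti replicate 1 (0.31, adjusted p = 0.0385). Under the treatment entry all 6 directions turn, with Lum and Dcn higher in Opti.

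**Figure D3:**
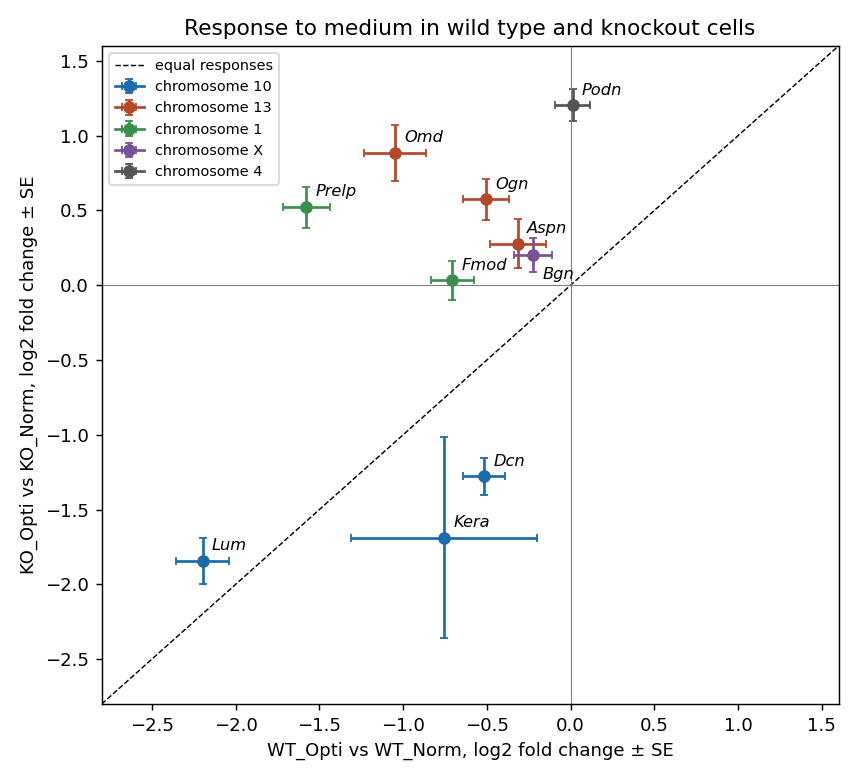
Response to medium (log2 fold change of Opti against Norm, with SE) in wild type (horizontal axis) and knockout cells (vertical axis), coloured by chromosome; the dashed line marks equal responses. Both responses of Lum and Dcn are below 0, while Prelp and Omd are at -1.58 and -1.05 in wild type and at 0.52 and 0.88 in knockout cells.

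The difference of these responses was tested as the interaction of genotype and medium. It passed for 5 members in the positive direction and 1 in the negative, while 31.4% of all genes passed, 14.4% positive and 17% negative. It was 2.10 ± 0.20 for Prelp (adjusted p = 8.02e-06) and 1.93 ± 0.26 for Omd (adjusted p = 0.000136). For Podn it was 1.19 ± 0.15, for Ogn 1.08 ± 0.20 and for Fmod 0.74 ± 0.18. The call of Fmod was lost on both FPKM scales (limma, 0.64 on each, adjusted p = 0.103 and 0.0907). Dcn was the member with a negative value, -0.76 ± 0.18 (adjusted p = 0.00547). Lum had 0.36 ± 0.21 (interval -0.14 to 0.85, adjusted p = 0.225), so a difference between its responses was not detected on the titles' reading. Under the treatment entry the interaction of Lum was 4.04 (adjusted p = 1.31e-07). Bgn (0.43, adjusted p = 0.0599) passed without KO_Opti replicate 1 (0.53, adjusted p = 0.00532), and Aspn (0.60, adjusted p = 0.0736) without WT_Norm replicate 3 (0.75, adjusted p = 0.0195) or WT_Opti replicate 3 (0.76, adjusted p = 0.0418). Bgn and Aspn also passed with DESeq2 (adjusted p = 0.00287 and 0.0209), with upper-quartile scaling and with a mean of at least 5 CPM.

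The makeup of the family shifted with these changes. The 10 members summed to between 4281 and 5758 FPKM in WT_Norm, 3249 and 3406 in WT_Opti, 2511 and 2608 in KO_Norm, and 2458 and 3144 in KO_Opti. Lum made up 24.4% ± 2.39 (SD, n = 3) of this sum in WT_Norm, 9.59% ± 0.997 in WT_Opti, 8.34% ± 1.34 in KO_Norm and 2.25% ± 0.0545 in KO_Opti. Bgn went the other way, with 14.2% ± 1.32, 21.8% ± 1.33, 32.1% ± 0.551 and 35.7% ± 0.101. Fmod held between 28.9% and 42.2% in all 12 libraries.

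**Figure D4:**
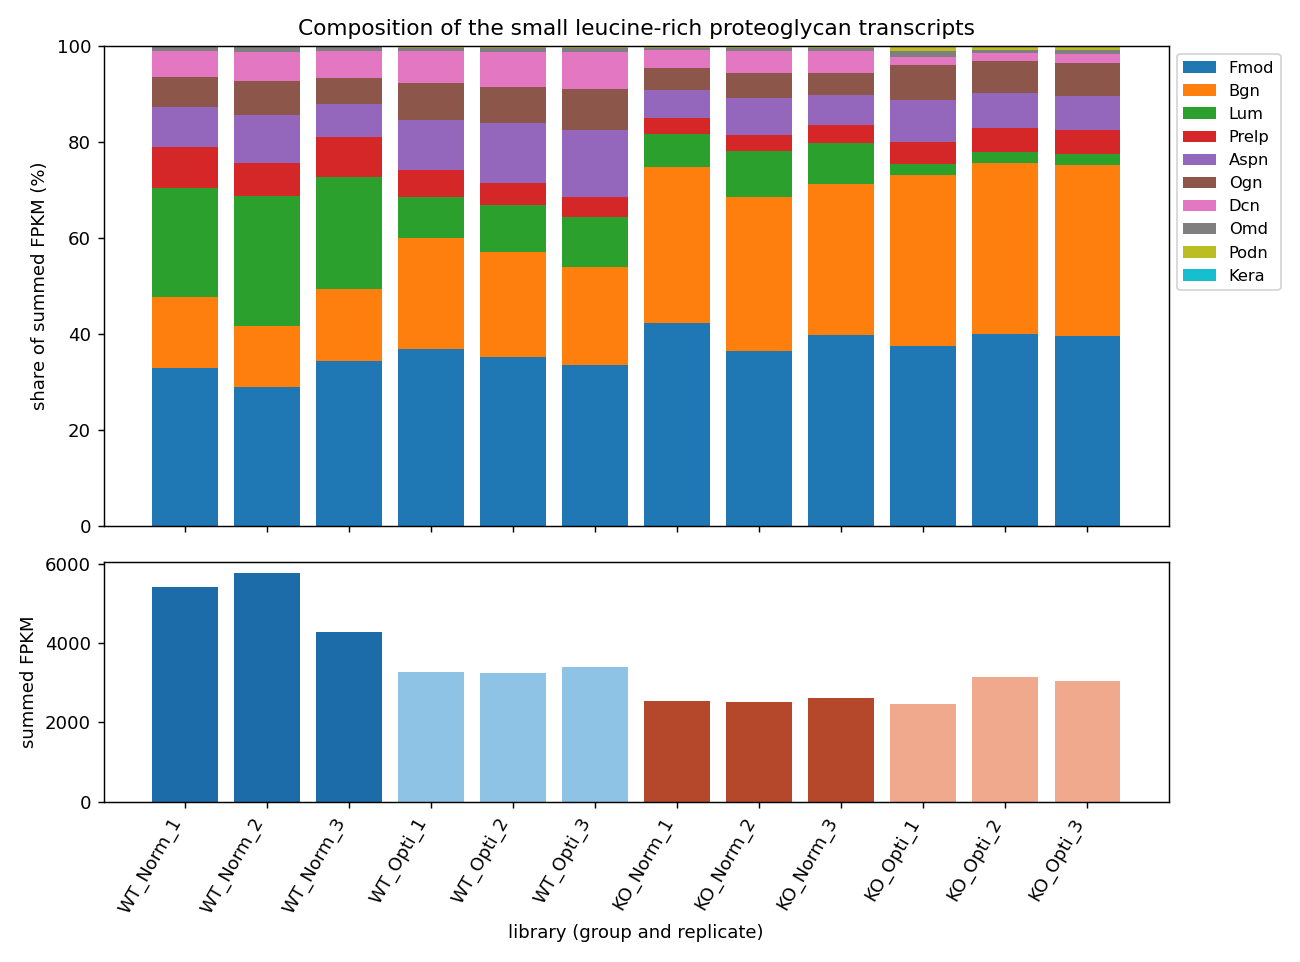
Upper panel, share of each member in the summed FPKM of the 10 members (percent) for each library; lower panel, that sum (FPKM). The Lum share narrows from 22.7% or more in WT_Norm to at most 2.31% in KO_Opti, and the Bgn share widens from at most 14.98% to at least 35.6%.

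Ratios within a library do not depend on how libraries are scaled, and were chosen after the values were seen. Bgn over Dcn was 2.06 to 2.72 in WT_Norm, 2.64 to 3.47 in WT_Opti, 6.84 to 8.41 in KO_Norm and 19.4 to 21.1 in KO_Opti. The sum of Dcn, Lum and Kera over that of Aspn, Omd and Ogn was 1.84 to 2.21, 0.782 to 0.824, 1.01 to 1.15 and 0.24 to 0.265 in the same order. The chromosome 10 sum thus lost ground to that of chromosome 13 from Norm to Opti in both genotypes, in knockout cells on the titles' reading of the media. Most of it in WT_Norm was Lum (mean 1262 of 1560 FPKM). On counts, Dcn fell in wild type cells (-0.52) less than Omd (-1.05), like Ogn (-0.50) and more than Aspn (-0.32). In wild type cells the shift was therefore that of Lum and not of the neighbours together. Within the stretch on chromosome 13, Ogn over Aspn stayed between 0.605 and 0.945 in all libraries. Within that on chromosome 10, Lum over Dcn was 4.14 to 4.41 in WT_Norm and 1.26 to 2.04 in the others.

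**Figure D5:**
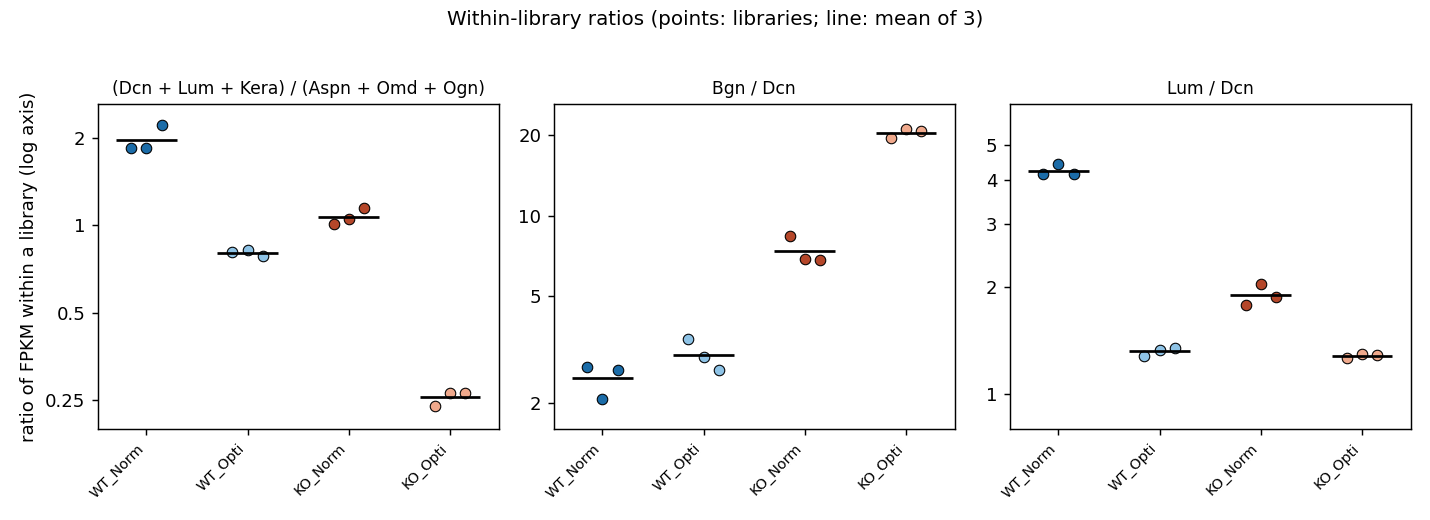
Ratios of FPKM within a library on a log axis, with points for libraries and a line for the mean of 3. The ratio of the chromosome 10 to the chromosome 13 members is lowest in KO_Opti (0.24 to 0.265), and Bgn over Dcn is highest there (19.4 to 21.1).

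Members were compared by the distance of their 4 group means of log2(CPM + 0.5), each centred on its own mean. The most alike were Aspn and Ogn (root mean square difference 0.161) and Ogn and Omd (0.227), all neighbours on chromosome 13. Prelp and Omd (0.308), on different chromosomes, and Dcn and Kera (0.326) followed. Group means of Kera were only 0.0807 to 2.29 CPM, so the added 0.5 narrows its differences and its distances depend on it. Other neighbours were further apart, with 0.369 for Aspn and Omd, 0.537 for Fmod and Prelp, 0.694 for Dcn and Lum and 0.857 for Kera and Lum. This is a description over 4 groups.

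Of 8 further family genes tested, 3 were lower over both media in knockout cells and none was higher, beside 16% and 18% of all genes. Nyx, 1 of the 3, and Epyc reached the filter's cutoff only in wild type libraries, so that this count is a description. Ecm2 was lower, as given above. Nyx (nyctalopin, a retinal protein) was at 22 to 58 counts per library in WT_Norm and 4 to 7 in KO_Norm. Optc (opticin) was lower, with -0.76 ± 0.24 (adjusted p = 0.0293) at 41 to 150 counts. Tsku (tsukushi, a secreted modulator of BMP and Wnt signals) had a like response to medium in both genotypes, -0.83 ± 0.09 in wild type (adjusted p = 7.84e-06) and -0.73 ± 0.09 in knockout cells (adjusted p = 0.000221), with an interaction of 0.11 ± 0.12 (adjusted p = 0.533). Podnl1, the relative of Podn, was lower in Opti in wild type cells (-1.80 ± 0.19, adjusted p = 8.54e-06) and at -0.27 ± 0.18 in knockout cells (adjusted p = 0.35). Chadl passed only in the response of wild type cells (0.81 ± 0.24, adjusted p = 0.0175), and Chad, at 26 counts or fewer in every library, in no comparison.

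Enzymes that build and sulfate the chains of these proteoglycans were also measured. Of 22 chondroitin and dermatan sulfate enzymes, 14 were lower and 2 higher in WT_Opti against WT_Norm, beside 19.6% and 20.3% of all genes. In KO_Norm against WT_Norm 13 were lower and 2 higher, beside 17.2% and 18.9% of all genes. In KO_Opti against WT_Opti 4 were lower and 4 higher, beside 14.9% and 13.3% of all genes. Chst15, which adds a sulfate to chondroitin sulfate chains, averaged 16.8 ± 1.57 CPM in WT_Norm, 2.62 ± 0.505 in WT_Opti, 5.54 ± 0.510 in KO_Norm and 2.6 ± 0.456 in KO_Opti. Chpf2, a chain polymerizing factor, averaged 246 ± 8.11, 110.2 ± 3.9, 151.4 ± 9.18 and 161.2 ± 8.55 CPM. All 5 genes tested of sulfate supply and turnover were lower in WT_Opti than in WT_Norm and in KO_Norm than in WT_Norm. In the second comparison Impad1 was near the threshold (-0.39 ± 0.14, adjusted p = 0.0496) and its groups overlapped. Among the 5 were Papss2, a synthase of the sulfate donor (-1.11 ± 0.13, adjusted p = 2.91e-05, and -0.88 ± 0.13, adjusted p = 0.000265), and Slc35b2, its Golgi transporter (-0.82 ± 0.10, adjusted p = 2.74e-05, and -0.75 ± 0.10, adjusted p = 8.36e-05). None of the 5 passed in KO_Opti against WT_Opti. Of 7 keratan sulfate enzymes, 3 were lower and 2 higher in WT_Opti against WT_Norm, beside 19.6% and 20.3% of all genes. In KO_Norm against WT_Norm 2 were lower and 2 higher, beside 17.2% and 18.9% of all genes. There B3gnt2, which extends the chain, was higher (0.96 ± 0.12, adjusted p = 5.16e-05). In KO_Opti against WT_Opti 3 were lower and 1 higher, beside 14.9% and 13.3% of all genes, and Chst2 was among the lower (-0.56 ± 0.09, adjusted p = 0.000754).

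Of the 9 fibril collagens that these proteoglycans bind, 6 were lower and 1 higher in knockout cells over both media, beside 16% and 18% of all genes. Col1a1, the main chain of type I collagen, averaged 76880 ± 5587 CPM in WT_Norm, 58370 ± 4159 in WT_Opti, 41530 ± 4896 in KO_Norm and 22980 ± 4528 in KO_Opti (knockout against wild type -1.12 ± 0.11, adjusted p = 8.97e-06). Col2a1, the collagen of cartilage, averaged 77.2 ± 5.75, 18.1 ± 1.32, 85.2 ± 14.6 and 44.8 ± 7.23 CPM, and was higher in KO_Opti than in WT_Opti (1.31 ± 0.14, adjusted p = 2.5e-05). Of 11 proteases and cofactors that process or cleave the family, 7 were lower and 3 higher in the same comparison, beside the same shares of all genes. Pcolce, which enhances procollagen C-proteinase, was lower (-0.84 ± 0.08, adjusted p = 8.8e-06), and Adamts5, an aggrecanase, was higher (1.56 ± 0.16, adjusted p = 9.8e-06).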

How the data were processed

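Poly(A) RNA of 12 libraries was prepared with a stranded kit and sequenced in pairs. Per the labels, the authors' tools were FastQC, HISAT2, StringTie and edgeR. For their versions and for the genome build, the entry is not given in the sources used here. The deposited table holds raw counts per gene, made by the authors and used for all tests. The deposited FPKM values, which the authors scaled by transcript length and library size, were used for shares, ratios and an alternative. Of the table's gene IDs 99.71% matched GENCODE M21 (GRCm38), and 99.87% of these overlapped their position there. Promoters are from RefSeq.

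Tests ran in edgeR 4.0.16 under R 4.3.3: filterByExpr, TMM, 1 mean per group over all 12 libraries, two-sided quasi-likelihood tests, Benjamini-Hochberg adjustment over 19118 genes, threshold 0.05. The biological coefficient of variation was 25.4%. CPM are TMM-scaled, and 95% intervals use the t distribution with 8 degrees of freedom. In simulated counts for knockout against wild type over 19118 genes, 64.2% of 1.5-fold, 89.6% of 2-fold and 98.5% of 4-fold changes were recovered. Alternatives used RLE and upper-quartile scaling, DESeq2 1.42.0, no filter, a mean of at least 5 CPM, limma 3.58.1 on log2(FPKM + 0.1) and log2(FPKM + 1), a replicate block, summed Y-linked expression as a covariate, the treatment entry, and each library left out. All members are named, as are further family genes, and from each other list some of the genes with the smallest adjusted p, and the 5 genes nearest in pattern to Dcn and to Lum among 10992 genes with at least 5 CPM, of which 1 is not reported here. Members and lists were chosen with earlier results of these data known.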

Additional observations from a re-analysis of the deposited data

Results flagged for a closer look

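For 6 members the response to medium of knockout cells minus that of wild type cells differed from 0 in the interaction test (edgeR, adjusted p below 0.05). The difference was -0.763 log2 units for Dcn, 0.737 for Fmod, 1.077 for Ogn, 2.101 for Prelp, 1.929 for Omd and 1.19 for Podn. Over all genes 31.4% passed this test. Every one of these differences rests on the titles of the knockout libraries. Under the treatment entry Fmod and Prelp keep a positive direction, and Dcn and Podn turn. Omd, at 0.162 (adjusted p = 0.668), and Ogn, at -0.07 (adjusted p = 0.819), then do not pass.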

How the results depend on the processing

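One limit is the medium of the knockout libraries. Under the treatment entry, Podn is at 0.725 in KO_Norm against WT_Norm. In KO_Opti against WT_Opti Omd is then at -0.844, Podn at -0.489 and Prelp at -0.78 (adjusted p = 0.00131), while Bgn loses its call (0.237, adjusted p = 0.158). In the response of knockout cells Dcn is at 1.278, Lum at 1.842, Ogn at -0.574, Prelp at -0.522, Omd at -0.884 and Podn at -1.202. In the interaction Lum is at 4.04 (adjusted p = 1.31e-07), Dcn at 1.794, Ogn at -0.07, Podn at -1.214 and Kera at 2.441. On counts, Lum, Dcn, Aspn, Ogn and Kera are lower in knockout cells in both media under either reading.

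On both FPKM scales 3 members were called in the wild type response, against 6 on counts. The median of all genes stood at -0.013 on counts and at 0.182 on log2(FPKM + 0.1), and 69.7% of called genes were higher, against 50.9% on counts. Over both media 68.4% of called genes were higher in knockout cells on the FPKM scale and 38.7% with upper-quartile scaling, against 53% on counts. With each library left out, the members called ranged from 8 to 9 for genotype over both media, stayed at 9 in Norm, and ranged from 6 to 7 in Opti, 5 to 7 for the wild type response, 4 to 7 for the knockout response and 6 to 7 for the interaction.

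Adding summed Y-linked expression to the model left 986 genes called for genotype over both media, against 6491, and Fmod (-0.37, adjusted p = 0.414) and Bgn lost their call, while the other called members kept theirs. In Norm Fmod, Podn and Kera lost theirs, as did Prelp in the knockout response and Dcn and Fmod in the interaction, where Aspn gained one. The cause was not tested. Replicate numbers did not pair the samples: over 18 pairs with the same number the correlation of deviations ran from -0.244 to 0.283, and 5 of 12 libraries correlated best with their own number. With a replicate block Bgn over both media was at 0.225 (adjusted p = 0.069), and no other call of a member changed.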

Other observations

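The genes whose 4 group means lay nearest to those of Dcn, among the 10992 genes averaging 5 CPM or more, were Fbln1, Fcgr2b, Plat, Efs and Mrc1. Their root mean square differences were 0.145 to 0.174 on the log2(CPM + 0.5) scale. Fbln1 encodes fibulin-1, an extracellular matrix protein, and averaged 83.1 CPM in WT_Norm, 67.9 in WT_Opti, 25.1 in KO_Norm and 12.7 in KO_Opti. Plat encodes tissue plasminogen activator and averaged 122.6, 74.4, 40.2 and 19.5 CPM in the same order. Fcgr2b and Mrc1 are known from macrophages, whose 5 summed markers were also lowest in KO_Opti, and the part of such cells was not tested.

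Among the genes nearest to Lum were Ces2g, Fat3, Tnfrsf19 and Ces2e, at differences of 0.168 to 0.404. Ces2g, a carboxylesterase gene, averaged 51.2 CPM in WT_Norm, 13.1 in WT_Opti, 8.65 in KO_Norm and 2.57 in KO_Opti. Tnfrsf19, a receptor of the tumor necrosis factor receptor family, averaged 201 CPM in WT_Norm and 12.2 in KO_Opti. These are likenesses over 4 groups, with no test.

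Among 17 tested receptors and growth factors that bind these proteoglycans, Ccn2, the gene of connective tissue growth factor, to which decorin binds, differed most. It averaged 510.5 ± 85.0 CPM (SD, n = 3) in WT_Norm, 19.9 ± 7.92 in WT_Opti, 170.7 ± 13.6 in KO_Norm and 530.8 ± 40.0 in KO_Opti. Its response to medium was -4.68 ± 0.25 log2 units in wild type cells (adjusted p = 3.11e-08) and 1.64 ± 0.22 in knockout cells (adjusted p = 0.000396, edgeR). Under the treatment entry the second value changes sign.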
